A study of Macaca fascicularis with 23 samples.

Results

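The genes described here are 7 genes named for roles in the nervous system, NPY, PTN, PTPRZ1, NPTX2, BCHE, LRRN3 and LPHN3, and their levels were read in every library of cynomolgus monkey (Macaca fascicularis, Cm) pluripotent stem cells (PSCs) and of the somatic cells used to make part of those lines. They were taken by name from an expression table of 8415 genes, under the gene IDs 102126365 (NPY), 102144023 (PTN), 102144022 (PTPRZ1), 102124018 (NPTX2), 102130167 (BCHE), 102139224 (LRRN3) and 102144435 (LPHN3, listed as ADGRL3 in the RefSeq annotation). The genes were selected on their RPM levels across the media and were read in ESC and iPSC lines, so the differences between media and between ESC and iPSC lines below are a description, given with standard errors and no p-values. All 7 passed the filter for expressed genes, log2(RPM + 1) above 4 in at least 1 PSC library, which 2776 of the 8415 genes passed. A gene that is high in a single medium passes that filter through that medium alone. The 8415 genes are a part of the data: they hold 24.85 to 27.53% of the total to which each library is scaled. The study itself counted more expressed genes than that. Below, a measured gene is one of the 8415 and an expressed gene one of the 2776. A gene outside them may still have been sequenced.

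Expression was measured by SC3-seq, which sequences the 3′ ends of amplified cDNA, and the values are RPM, read counts scaled to the mapped reads of the library. Each of 7 PSC lines was cultured in 3 media and gave 1 library in each, 21 in all. CMK6 and TRSK (male) and CMK9 (female) are embryonic stem cell (ESC) lines. The induced pluripotent stem cells (iPSCs) came from 1 female foetus, the line names iPS-L3 and iPS-L6 marking an origin in liver cells, iPS-S6 and iPS-S12 one in the stomach. Primed cells grew in bFGF/KSR medium. Naïve-like cells grew in K5cLD medium, which holds the 5 chemicals Gö6983, forskolin, kenpaullone, CHIR99021 and SB590885, LIF, and doxycycline (Dox) to induce the human KLF2 and NANOG transgenes put into them. Differentiated cells were naïve-like cells moved to K5c medium, which lacks LIF and Dox and keeps the chemicals. The naïve-like medium also has another base medium, with N2 and B27 supplements, so chemicals, LIF, transgenes and base medium cannot be told apart. The iPSCs had been made with episomes for LIN28, L-MYC, KLF4, SOX2, OCT3/4 and a short hairpin RNA against p53, of which the OCT3/4 episome was still found by the study in both liver-derived lines and in 1 stomach-derived line (its text names iPS-S6 and a legend iPS-S12), and since all 4 iPSC lines share a donor, donor and origin of the line cannot be told apart. The remaining 2 libraries were cultured somatic liver cells and stomach cells from that foetus, 1 library each, with no replicates.

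Neuropeptide Y (NPY) is a secreted peptide transmitter. Pleiotrophin (PTN) is a secreted heparin-binding growth factor, and the receptor-type tyrosine phosphatase PTPRZ1 is its best-known receptor, through which PTN acts by holding the phosphatase inactive. NPTX2 is a secreted pentraxin that clusters AMPA-type glutamate receptors at synapses, butyrylcholinesterase (BCHE) is a secreted enzyme that hydrolyses choline esters, LRRN3 is a transmembrane protein with leucine-rich repeats, and LPHN3 is a latrophilin, an adhesion G protein-coupled receptor that binds teneurins and FLRT proteins across synapses.

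The depth of the libraries ran from 861000 to 7986000 reads with a median of 3004000, and the median was 3250000 reads for primed, 2648000 for naïve-like and 3063000 for differentiated libraries. A level of 3 reads, taken as the limit below which a gene was not detectable, was between 0.376 and 3.49 RPM depending on the library. That limit covers counting error only. The sum of the 5 measured markers of pluripotent cells was 779 RPM in primed iPS-S12 and 1355 to 2394 RPM in the other 6 primed libraries, and POU5F1 was at 32.8 RPM there against 207 to 427 RPM, so this library stood apart within its group. POU5F1 had a median of 238 RPM in primed, 289 RPM in naïve-like and 20.2 RPM in differentiated cells. There it fell by 4.14 on the log2 scale from the naïve-like level (adjusted p = 1.25e-05, limma). L1TD1 (-2.22, adjusted p = 0.000467) and DPPA4 (-2.35, adjusted p = 0.000102) fell in that step as well. SOX2 (0.09, adjusted p = 0.859) and LIN28A (-0.18, adjusted p = 0.674) did not pass. The sum of the 5 markers was 1554 to 2515 RPM in naïve-like and 1027 to 2138 RPM in differentiated cells. The somatic liver library held none of the 5 measured hepatocyte markers (ALB, AFP, TF, AHSG and APOA2 were all listed at 0) and 4832 RPM of the collagen gene COL1A2, and the stomach library held 444 RPM of gastric epithelial markers beside 4506 RPM of COL1A2.

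NPY was highest in naïve-like cells, and PTPRZ1 was high in primed and naïve-like cells and lower in differentiated cells. PTN, BCHE and LPHN3 were lowest in naïve-like cells, LRRN3 was highest in primed cells, and NPTX2 was highest in differentiated ESCs. Of the 7 genes, 5 passed the threshold between naïve-like and primed cells (1 higher and 4 lower), where 19.2% of the 2776 expressed genes passed it, 11.1% higher and 8.18% lower. Between differentiated and naïve-like cells 5 of the 7 passed, 3 higher and 2 lower, against 14.1% of all expressed genes (6.41% higher and 7.71% lower). Between differentiated and primed cells LRRN3 alone passed, as lower, against 13.4% of all expressed genes (7.13% lower). These contrasts chose the genes, so nothing is read from the counts. With line identity as a block these counts were 5 of 7, 6 of 7 and 3 of 7, against 26.1%, 19.8% and 21.1% of all expressed genes, and the added calls were NPTX2 in both contrasts with differentiated cells and BCHE between differentiated and primed cells.

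**Figure D1:**
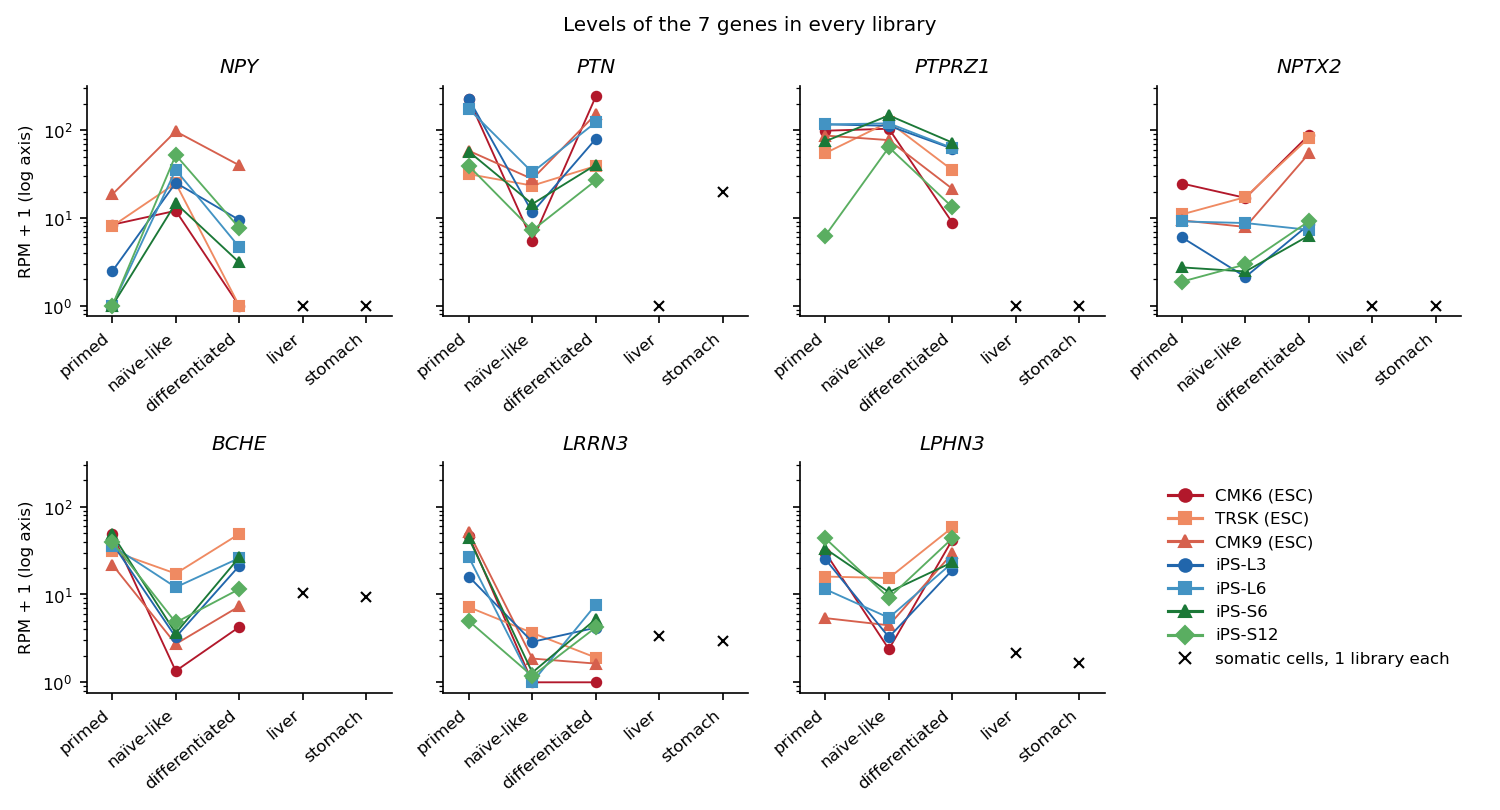
Level of each gene in all 23 libraries, as RPM + 1 on a log axis, with the 3 libraries of a cell line joined by a line and the somatic liver and stomach cells as crosses. Reds are ESC lines, blues and greens iPSC lines; NPY peaked in the naïve-like medium in all 7 lines, PTN, BCHE and LPHN3 dipped there, and the 3 ESC lines held the highest NPTX2 levels in differentiated cells, 53.4 to 87.2 RPM.

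NPY, the peptide ligand, was low or not detectable in primed cells and was detected in every naïve-like library. In primed cells it was at 7.38 RPM in CMK6, 7.05 RPM in TRSK and 17.5 RPM in CMK9, but at 1.47 RPM in iPS-L3 and listed at 0 in iPS-L6, iPS-S6 and iPS-S12. The 3 ESC lines thus lay above all 4 iPSC lines, as for 5.4% of the expressed genes (6.95% the other way). The zeros allow up to 3.49 RPM in iPS-L6, the shallowest library, and up to 1.3 and 1.33 RPM in iPS-S6 and iPS-S12, so at these depths the ESC levels would have been seen. In naïve-like cells the level was 11.1 RPM in CMK6, 23.9 RPM in TRSK, 95.9 RPM in CMK9, 24.2 RPM in iPS-L3, 34.4 RPM in iPS-L6, 13.7 RPM in iPS-S6 and 51.1 RPM in iPS-S12, with ESC and iPSC lines intermingled. In bulk libraries such as these, fewer cells of a type and less RNA per cell cannot be told apart. The mean was higher by 3.23 ± 0.77 (SE, n = 7 lines) on the log2(RPM + 1) scale, 9.39-fold, and higher in 7 of 7 lines, from 0.53 in CMK6 to 5.70 in iPS-S12. A rise in all 7 lines was seen for 9.73% of the expressed genes.

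After LIF and Dox were removed, NPY was lower in 7 of 7 lines, by 2.69 ± 0.77 on average, and the lines parted. It was listed at 0 in CMK6 and TRSK, where 3 reads would be 0.979 and 0.546 RPM, stayed at 38.8 RPM in CMK9, and was 2.12 to 8.50 RPM in the 4 iPSC lines, the lowest of these (iPS-S6) resting on 2 reads. Against their own primed level, CMK6 and TRSK were lower by more than 3 (differences of -3.07 and -3.01) and CMK9 and all 4 iPSC lines were listed higher (1.10 to 2.95). Of these, iPS-S6 was under the limit of detection in both media. In iPS-L6 the differentiated level was 3.66 RPM, and its primed 0 allows up to 3.49 RPM. In order of mean log2 level, naïve-like cells (4.89 ± 1.04, SD) stood above differentiated (2.2 ± 1.89) and primed cells (1.66 ± 1.77), and the last 2 did not differ beyond their spread. Neither somatic library held an NPY read.

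PTN, the growth factor, ran the other way. It was abundant in primed cells, from 30.6 RPM in TRSK through a median of 57.2 RPM to 224 RPM in CMK6 and 225 RPM in iPS-L3. In naïve-like cells it was between 4.5 RPM in CMK6 and 32.1 RPM in iPS-L6 with a median of 13.4 RPM, and in differentiated cells between 25.7 RPM in iPS-S12 and 241 RPM in CMK6 with a median of 78.6 RPM. The groups overlapped, because the primed level of TRSK lay below the naïve-like level of iPS-L6, but within a line the direction was the same in all 7. The mean fell by 2.56 ± 0.53 from primed to naïve-like cells, 5.92-fold, and rose by 2.38 ± 0.53 from naïve-like to differentiated cells. Differentiated and primed cells did not differ beyond their spread (-0.18 ± 0.53). CMK6 made the widest swing in both steps, from 224 to 4.5 to 241 RPM, and TRSK the narrowest, from 30.6 to 22.4 to 38.1 RPM.

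In the somatic cells PTN was at 18.8 RPM in the stomach library and listed at 0 in the liver library. The measured mesenchymal markers (COL1A2, PDGFRA and TWIST1) summed to 25.6 to 585 RPM in primed, 25.6 to 94.1 RPM in naïve-like and 11.7 to 268 RPM in differentiated cells. The 3 markers did not move together: the medians in primed, naïve-like and differentiated cells were 75.5, 25.6 and 101 RPM for COL1A2 and 4.12, 0.379 and 0.633 RPM for PDGFRA, but 7.08, 25.4 and 6.66 RPM for TWIST1, a transcription factor also of neural crest. The COL1A2 difference between naïve-like and primed cells was -1.92 ± 0.84, which did not pass the threshold and passed it with the cell line as a block (adjusted p = 0.000308, limma). That of TWIST1 was 1.38 ± 0.65, higher in 6 of 7 lines and short of the threshold (adjusted p = 0.145, limma), which it passed without CMK6 (2.11, adjusted p = 0.001). The liver library, with the highest COL1A2 level, 4832 RPM, had no PTN read, and the part of mesenchymal cells in the PTN levels was not tested.

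PTPRZ1, the PTN receptor, did not differ between primed and naïve-like cells beyond its spread, and was lower once LIF and Dox were gone. Primed levels were 97.5 RPM in CMK6, 53.8 RPM in TRSK, 85.8 RPM in CMK9, 116 RPM in iPS-L3, 115 RPM in iPS-L6 and 73.8 RPM in iPS-S6, and only 5.31 RPM in iPS-S12. Naïve-like levels were within 62.8 and 146 RPM in all 7 lines (SD 0.42 on the log2 scale, against 0.36 for the median expressed gene) and included 62.8 RPM in iPS-S12. The difference between naïve-like and primed cells was 0.77 ± 0.53, higher in 5 lines and lower in 2. The 3.34 of iPS-S12 was the largest, before 1.18 in TRSK and 0.98 in iPS-S6, and the other lines were nearly level. In differentiated cells the level was 7.83 RPM in CMK6, 34.1 RPM in TRSK, 20.5 RPM in CMK9, 60.6 RPM in iPS-L3, 61.6 RPM in iPS-L6, 71.1 RPM in iPS-S6 and 12.3 RPM in iPS-S12. It was lower than in naïve-like cells in 7 of 7 lines, by 1.76 ± 0.53 on average and 3.38-fold. A fall in all 7 lines was seen for 10.8% of the expressed genes. The order was naïve-like (6.69 ± 0.42, SD), primed (5.92 ± 1.49) and differentiated cells (4.93 ± 1.20), with naïve-like and primed cells not apart beyond their spread. Both somatic libraries listed PTPRZ1 at 0.

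PTN and its receptor therefore did not move together: between primed and naïve-like cells PTN was lower in 7 lines and PTPRZ1 in 2, and between naïve-like and differentiated cells PTN was higher and PTPRZ1 lower in every line. Over the 21 PSC libraries their Pearson correlation was -0.21, and 0.22 after the mean of each medium was subtracted. The libraries share cell lines and media, so these correlations are descriptions.

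NPTX2, the secreted pentraxin, was at like levels in primed and naïve-like cells and separated ESC from iPSC lines in the differentiated medium. Primed levels were 23.7 RPM in CMK6, 9.99 RPM in TRSK, 8.39 RPM in CMK9, 5.00 RPM in iPS-L3, 8.13 RPM in iPS-L6, 1.74 RPM in iPS-S6 and 0.886 RPM in iPS-S12, the last being 2 reads. Naïve-like levels were 15.9, 16.3 and 6.91 RPM in CMK6, TRSK and CMK9, and 1.96, 1.46, 1.13 and 7.76 RPM in iPS-S12, iPS-S6, iPS-L3 and iPS-L6. The difference between these media was -0.17 ± 0.69. In the differentiated medium NPTX2 was at 87.2 RPM in CMK6, 81.0 RPM in TRSK and 53.4 RPM in CMK9, and at 7.44, 6.32, 5.31 and 8.18 RPM in the 4 iPSC lines. Each ESC library was more than 6 times as high as any iPSC library. Averaged over 7 lines, differentiated cells differed from naïve-like cells by 1.73 ± 0.69, with 6 lines higher and iPS-L6 lower, and the ESC lines (2.47) moved further than the iPSC lines (1.18). Neither somatic library held an NPTX2 read.

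BCHE, the secreted cholinesterase, was even among primed lines and low in naïve-like cells. Primed cells had 48 RPM in CMK6, 30.3 RPM in TRSK, 20.9 RPM in CMK9, 37.3 RPM in iPS-L3, 34.9 RPM in iPS-L6, 47.8 RPM in iPS-S6 and 39 RPM in iPS-S12. Its spread over primed lines (SD 0.40) was the smallest of any of the 7 genes in any medium. Naïve-like cells had 0.346 RPM in CMK6, which is 1 read, 16.3 RPM in TRSK, 11.1 RPM in iPS-L6, and 1.73 to 3.80 RPM in the other 4 lines, so no naïve-like library reached a primed one. How many expressed genes part in this way between media was not counted, so nothing is read from it. The level fell by 3.0 ± 0.50 from primed to naïve-like cells, 7.98-fold, in 7 of 7 lines. A fall in all 7 lines was seen for 6.3% of the expressed genes. In differentiated cells BCHE ranged from 3.26 RPM in CMK6 through a median of 20.2 RPM to 47.9 RPM in TRSK, a rise of 1.79 ± 0.50 over naïve-like cells with all 7 lines higher, and it was below the primed level in 6 of 7 lines (-1.21 ± 0.50), TRSK being the exception. The somatic libraries held 9.39 RPM (liver) and 8.43 RPM (stomach), between the naïve-like and primed medians.

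LRRN3, the leucine-rich repeat protein, was highest in primed cells. It was at 45.5 RPM in CMK6, 6.17 RPM in TRSK, 49.8 RPM in CMK9, 15.0 RPM in iPS-L3, 25.6 RPM in iPS-L6, 42.6 RPM in iPS-S6 and 3.99 RPM in iPS-S12 in the primed medium. In naïve-like cells it was listed at 0 in CMK6 and iPS-L6 and at 1 read in CMK9, iPS-S6 and iPS-S12, and only TRSK (2.65 RPM) and iPS-L3 (1.89 RPM) held more than 3 reads. No naïve-like library reached a primed one, which was not counted over all expressed genes and from which nothing is read. The fitted fall was 3.66 ± 0.55, in 7 of 7 lines. In differentiated cells it was at 3.19 RPM in iPS-L3, 6.66 RPM in iPS-L6, 4.25 RPM in iPS-S6 and 3.22 RPM in iPS-S12, resting on 3 to 20 reads, and at 0 in CMK6, 0.911 RPM in TRSK and 0.633 RPM in CMK9. All 4 iPSC lines were above their naïve-like level, CMK6 was at 0 in both media, and the mean difference was 0.89 ± 0.55. Against primed cells the fall was 2.78 ± 0.55, again in 7 of 7 lines, the direction shared by 6.88% of the expressed genes. The order was primed (4.36 ± 1.36, SD), differentiated (1.59 ± 1.05) and naïve-like cells (0.70 ± 0.75), the last 2 not apart beyond their spread. Liver cells held 2.35 RPM and stomach cells 1.95 RPM.

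LPHN3, the latrophilin, was lowest in naïve-like cells and highest after LIF and Dox removal. Primed levels ran from 4.38 RPM in CMK9 and 10.5 RPM in iPS-L6 to 42.5 RPM in iPS-S12, with a median of 24.1 RPM. Naïve-like levels ran from 1.38 RPM in CMK6 to 14.4 RPM in TRSK with a median of 4.43 RPM, and differentiated levels from 18.1 RPM in iPS-L3 to 57.0 RPM in TRSK with a median of 28.5 RPM. The differentiated libraries all lay above the naïve-like ones, again without a count over all expressed genes, so nothing is read from it. The level fell by 1.70 ± 0.44 from primed to naïve-like cells in 7 of 7 lines, although the change in TRSK was only -0.05, and rose by 2.40 ± 0.44 from naïve-like to differentiated cells, 5.27-fold, in 7 of 7 lines, the direction of 9.11% of the expressed genes. Differentiated cells had the tightest spread (SD 0.59), and the difference from primed cells was 0.70 ± 0.44, higher in 5 lines and lower in 2. A rise in all 7 lines over primed cells was seen for 7.64% of the expressed genes and for none of the 7 genes. Liver and stomach cells held 2 reads each, under the limit of detection.

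The lines differed in the size of these changes. With 1 library per line and medium, a difference between lines and one between cultures or libraries cannot be told apart. For BCHE, LRRN3, PTN and LPHN3, the 4 genes that fell on conversion, CMK6 showed the largest fall and TRSK the smallest in every case: BCHE changed by -5.19 in CMK6 and -0.85 in TRSK, LRRN3 by -5.54 and -0.97, PTN by -5.35 and -0.43, and LPHN3 by -3.65 and -0.05. Among the 227 genes called lower in naïve-like cells, CMK6 fell most for 33%, TRSK fell least for 24.2%, and both held together for 7.05%. CMK6 also rose most for PTN and LPHN3 on LIF and Dox removal, as it did for 60.7% of the 178 genes called higher there. The SD over lines exceeded that of the median expressed gene (0.42, 0.36 and 0.38 for primed, naïve-like and differentiated cells) in 20 of the 21 gene and medium combinations. BCHE in primed cells was the exception. The genes were selected on their levels and some of these levels rest on few reads, so nothing is read from that count.

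**Figure D2:**
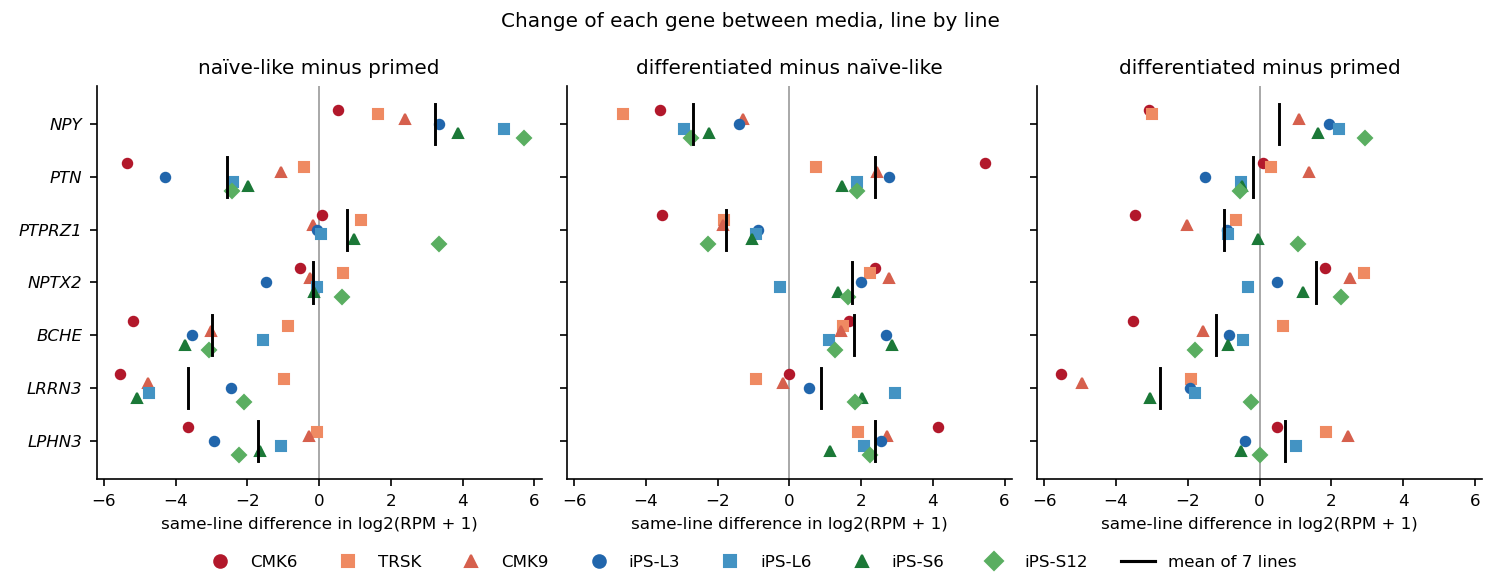
Same-line difference in log2(RPM + 1) between media for each gene, with 1 point per cell line and a black bar at the mean of the 7 lines. BCHE, LRRN3, PTN and LPHN3 lay left of 0 in naïve-like against primed cells with CMK6 farthest out and TRSK nearest to 0, and in differentiated against primed cells NPY lay right of 0 in 5 lines and left in CMK6 and TRSK.

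Levels were next read by origin of the line, 3 ESC against 4 iPSC lines within each medium. ESC and iPSC lines are named in the rule by which the genes were read, so these differences carry no p-value. At the threshold used for all genes NPTX2 alone of the 7 passed, in differentiated cells and over line means, where 0.612% and 1.62% of the expressed genes passed (0.684% higher and 0.937% lower in ESC lines over line means), and nothing is read from that. NPTX2 was 9.47-fold higher in differentiated ESC than iPSC lines, a difference of 3.24 ± 0.54 (SE), with no overlap between the groups. Of the expressed genes, 6.56% were higher in differentiated ESC lines with no overlap. The difference was 1.74 ± 0.54 in primed and 1.95 ± 0.54 in naïve-like cells. In primed cells all 3 ESC lines lay above all 4 iPSC lines (8.39 RPM in CMK9 against 8.13 RPM in iPS-L6), as 5.4% of the expressed genes did (6.95% the other way), and in naïve-like cells, where 5.01% did (6.63% the other way), iPS-L6 lay above CMK9. Over the means of 3 media per line the difference was 2.31 ± 0.37. Without TRSK the difference in differentiated cells was 3.16 and was past that threshold no longer, and over line means it was not past it in 5 of 12 alternative fits. The change from naïve-like to differentiated cells differed between ESC and iPSC lines by 1.29 ± 0.76.

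Some markers of other cells also parted by origin in the differentiated medium. The mesenchymal markers summed to 126 to 268 RPM in the ESC lines and 11.7 to 111 RPM in the iPSC lines, nearly all of it COL1A2 in the ESC lines, and COL1A2 differed by 3.28 ± 0.82 (adjusted p = 0.072, limma). TWIST1, of the same list, differed by -0.57 ± 0.91 (adjusted p = 0.836, limma), and PDGFRA was at no more than 4.19 RPM. Alpha-fetoprotein (AFP), a marker of hepatocytes and of visceral endoderm, was at 2.19 to 28.7 RPM in the ESC lines and 29.8 to 150.5 RPM in the iPSC lines (-3.80 ± 0.97, adjusted p = 0.072, limma). Without iPS-S12 both COL1A2 (4.10, adjusted p = 0.000162) and AFP (-4.34, adjusted p = 0.00603) passed, and AFP did so without CMK9 too (-4.87, adjusted p = 0.0173). In iPS-S12, with 101 RPM of COL1A2, NPTX2 was at 8.18 RPM, and the liver and stomach libraries, with 4832 and 4506 RPM of COL1A2, held no NPTX2 read. The part of these cell types in the NPTX2 difference was not tested.

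NPY was higher in ESC than iPSC lines in primed cells, by 3.10 ± 0.93, with no overlap. Of the expressed genes, 5.4% were higher in primed ESC lines with no overlap (6.95% the other way). In that medium 1.59% of the expressed genes passed the threshold, and NPY did not. Without CMK9, the highest line, the difference was 2.71. In naïve-like cells it was 0.10 ± 0.93, and -0.73 without CMK9. The mean gain on conversion was 4.52 in iPSC lines and 1.51 in ESC lines, which differ by -3.01 ± 1.32. No gene of the 2776 passed for that difference in gain by limma, and 133 had an unadjusted p under 0.05. For the change from primed to differentiated cells ESC and iPSC lines differed by -3.85 ± 1.32, and by -5.23 without CMK9. With the line as a block 0.144% of the expressed genes passed for that change, and NPY was not among them.

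LRRN3 and PTPRZ1 had lower means in differentiated ESC than iPSC lines. For LRRN3 the difference was -1.82 ± 0.72, with all 3 ESC libraries below all 4 iPSC libraries, as for 4.97% of the expressed genes. Of the ESC levels, the 0 in CMK6 allows up to 0.979 RPM and the others rest on 3 to 5 reads. For PTPRZ1 it was -1.22 ± 0.75. Without iPS-S12, whose 12.3 RPM lay among the ESC levels of 7.83 to 34.1 RPM, the difference was -1.80, while the number of all expressed genes past the threshold went from 17 to 112. The POU5F1 level of iPS-S12 in the same medium was 4.68 RPM, within the 3.59 to 69.2 RPM of the other lines. In naïve-like cells the differences of the 6 genes other than NPTX2 lay between -0.36 and 0.39, against -0.89 to 3.10 in primed and -1.82 to 0.99 in differentiated cells.

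**Figure D3:**
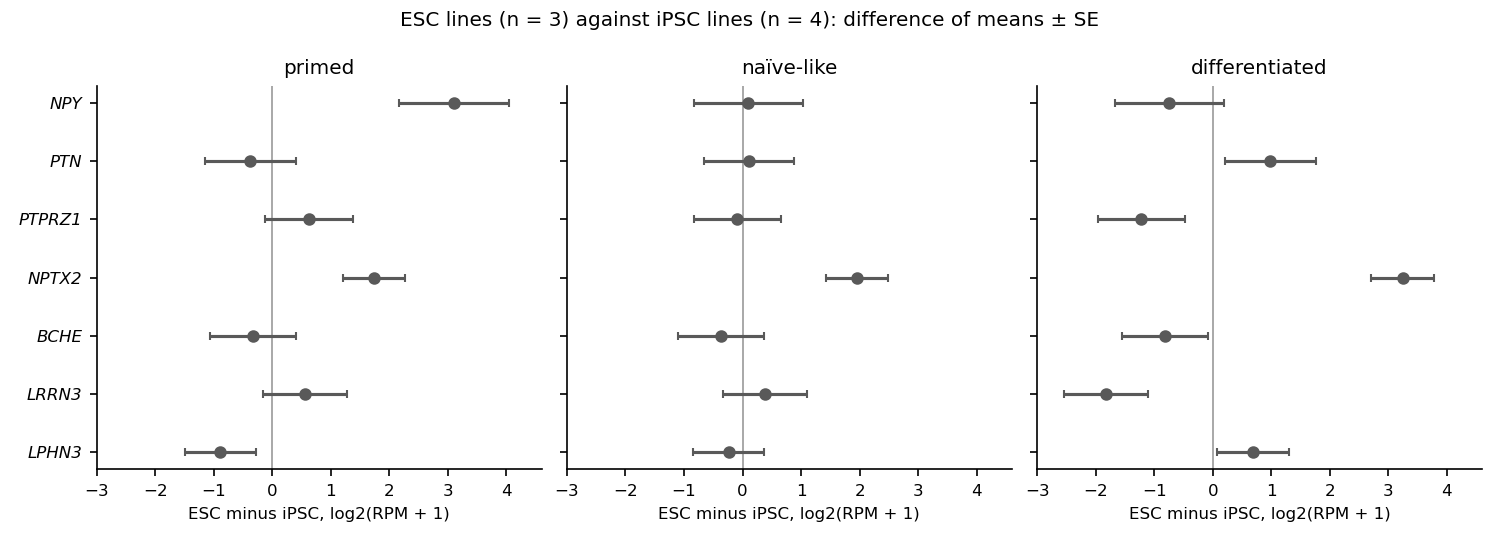
Difference between the means of 3 ESC and 4 iPSC lines in log2(RPM + 1) for each gene and medium, with bars of 1 SE. NPTX2 stood at 3.24 in differentiated cells, and NPY at 3.10 in primed cells and near 0 in naïve-like cells.

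Partners and relatives of the 7 genes were read from lists of 132 entries. These lists were chosen with earlier results of these data known. The calls and p-values of listed genes are therefore a description and no independent support. Entries not measured lay outside the 8415 genes read here, and nothing is known here of their levels. None of the 9 listed genes of the NPY axis (receptors, related peptides and a peptidase) was analysed here. Of 10 pentraxins and AMPA receptor genes 3 were measured and none was expressed in PSCs: PTX3, a pentraxin of inflammation, was at up to 12 RPM in PSCs and at 28.2 and 27.6 RPM in liver and stomach cells. Of 18 cholinergic genes 5 were measured and none was expressed: acetylcholinesterase (ACHE) reached at most 2.35 RPM, and the muscarinic receptors CHRM2 and CHRM3 at most 1.69 RPM, while BCHE reached 48 RPM.

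LRRN1 moved the same way as LRRN3 in both contrasts with primed cells, and LPHN2 was level where LPHN3 was not. LRRN1, of the same family as LRRN3, was at a median of 323 RPM in primed, 129 RPM in naïve-like and 92.9 RPM in differentiated cells. It fell on conversion by 1.58 ± 0.31 in 7 of 7 lines (adjusted p = 0.00128, limma) and was lower in differentiated than primed cells by 1.77, with a difference of -1.77 ± 0.31 (adjusted p = 0.000434). LRRN2, another family member, was at 15.0, 9.69 and 16.4 RPM and passed in no contrast between media. LRRC4, a netrin-G ligand, passed in none either, and with the line as a block it was higher in differentiated than naïve-like cells (1.21, adjusted p = 0.0215). It also passed there with library centring (adjusted p = 0.0473, limma) and with only the 2 media compared in the fit (0.0273). LPHN2, the relative of LPHN3, was level in all media, at medians of 232, 231 and 231 RPM, with differences of -0.05 ± 0.16 and 0.00 ± 0.16 in the 2 steps in which LPHN3 changed by -1.70 and 2.40.

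Of 29 listed partners and relatives of PTN and PTPRZ1, 13 were measured and 6 expressed. PTPRG, the phosphatase closest to PTPRZ1, rose on conversion by 0.75 ± 0.15 in 7 of 7 lines (adjusted p = 0.00138) and fell by 1.27 ± 0.15 on LIF and Dox removal in 7 of 7 (adjusted p = 3.6e-06), from medians of 23.9 to 42.2 to 15.9 RPM. Both phosphatases were thus lower in differentiated than naïve-like cells in every line. CNTN4, a contactin of the PTPRG-binding group, fell from 10.0 to 0.876 RPM on conversion (difference -2.30 ± 0.54, lower in 6 of 7 lines, adjusted p = 0.00505), as it did in every alternative fit. NRCAM, an adhesion molecule that PTPRZ1 binds, was higher in differentiated than naïve-like cells in 7 of 7 lines, by 1.81 ± 0.47 (adjusted p = 0.0118), at 11.0 and 33.3 RPM. The heparan sulphate proteoglycan SDC3, the kinase FYN and beta-catenin (CTNNB1) passed in no contrast between media, although FYN on conversion, NRCAM on conversion and CTNNB1 in both contrasts with differentiated cells passed with the line as a block. There the values were -0.52 for FYN (adjusted p = 0.0179), -1.16 for NRCAM (adjusted p = 0.0344) and 0.61 for CTNNB1 in both (adjusted p = 0.0143 and 0.0137). FYN on conversion also passed with quantile normalization, with library centring, and without CMK6 or TRSK (adjusted p 0.0164 to 0.0376, limma). CTNNB1 also passed against naïve-like cells with library centring (0.0348). Against primed cells it also passed with only the 2 media compared in the fit (0.0493). PTPRG (-0.52 ± 0.15) and CNTN4 (-1.66 ± 0.54) were also lower in differentiated than primed cells in 7 of 7 lines (adjusted p = 0.021 and 0.0408), calls that 10 of 15 and 6 of 14 alternative fits kept; leaving out any 1 line but CMK6, TRSK or iPS-S12 for PTPRG, or but iPS-S12 for CNTN4, lost them (0.0501 to 0.132). NRCAM over line means was lower in ESC lines (-1.21 ± 0.21, adjusted p = 0.0212), a call lost without CMK6, TRSK, iPS-L6, iPS-S6 or the filter (0.0566 to 0.103).

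The last list held other axonal adhesion and guidance genes. Of 26 listed, 18 were measured and 14 expressed, and 8 of the 14 passed between naïve-like and primed cells, 2 higher and 6 lower. The median difference was -0.84 against 0.06 for all expressed genes, of which 19.2% passed (11.1% higher and 8.18% lower). As the list was chosen with earlier results of these data known, nothing is read from this count or median. The receptors ROBO1 (1.24 ± 0.33, higher in 5 of 7 lines) and ROBO2 (1.69 ± 0.35, 7 of 7) were higher, and their ligand SLIT2 was lower (-0.85 ± 0.28, 7 of 7). ALCAM, a cell adhesion molecule, fell from 61.5 to 16.6 RPM in 7 of 7 lines (difference -1.79 ± 0.31, adjusted p = 0.000385, limma). The secreted semaphorins SEMA3A (-1.59 ± 0.39), SEMA3C (-1.32 ± 0.43) and SEMA3E (-2.16 ± 0.53) and the plexin PLXNA1 (-0.72 ± 0.17) were lower as well. On LIF and Dox removal SEMA3C (1.86 ± 0.43), SEMA3E (1.91 ± 0.53) and PLXNA2 (1.57 ± 0.48) rose in 7 of 7 lines and ROBO2 fell by 1.35 ± 0.35 in 7 of 7. The call for SEMA3E there was lost without iPS-L3, iPS-L6 or iPS-S6 (adjusted p 0.0503 to 0.0787), and that for PLXNA2 without CMK6, TRSK, iPS-L3 or iPS-L6 or the filter (0.0503 to 0.122). ALCAM (-1.82 ± 0.31) and SEMA3A (-1.38 ± 0.39) were lower in differentiated than primed cells as well, in 7 of 7 lines, SEMA3A not without iPS-L3, iPS-L6, iPS-S6 or the filter (0.0548 to 0.0728). Calls for ALCAM, ROBO2, SEMA3A and PLXNA1 on conversion stood in every alternative fit, those for SLIT2 and SEMA3C were lost without CMK6 (adjusted p 0.138 and 0.149) and in 4 and 5 further fits, and that for ROBO1 was lost without iPS-L3, iPS-L6 or iPS-S6 (0.0512 to 0.0558). By origin, NLGN1, a neuroligin of synapses, was lower in primed ESC than iPSC lines (-2.51 ± 0.52, adjusted p = 0.0157, limma), a call lost without TRSK or iPS-L6 (0.0832 and 0.0823).

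Some markers of the neural lineage were present in all media and others were near 0. NES, an intermediate filament of progenitors, was at medians of 348, 194 and 323 RPM in primed, naïve-like and differentiated cells, and it passed between differentiated and naïve-like cells (0.92 ± 0.30, adjusted p = 0.0403) but not without CMK6 (0.69, adjusted p = 0.177), and in 9 of 15 alternative fits in all. POU3F2, a neural transcription factor, rose there by 1.81 ± 0.58 (adjusted p = 0.0372), which 7 of 14 fits kept, those without CMK9 or iPS-L6 among them, and those without any other line did not (0.0646 to 0.115). The sum of the 8 measured markers of neural progenitors and neurons was 1106 to 1610 RPM in primed, 1072 to 1427 RPM in naïve-like and 1205 to 1629 RPM in differentiated cells, so the ranges overlapped. STMN1 alone had medians of 839, 963 and 888 RPM in these media. For the same sum, liver cells held 1100.0 RPM, nearly all of it STMN1. FABP7 had medians of 6.77, 10.4 and 46.2 RPM in the 3 media and passed in no contrast between them. DLX5 and DLX6 reached at most 0.346 and 3.19 RPM, and NEUROD6 was listed at 0 in every library. GAP43, a growth cone protein of the same list, went the other way from NES and POU3F2 on LIF and Dox removal. It was lower in 7 of 7 lines at medians of 55.5 and 20.0 RPM (-1.20 ± 0.44, adjusted p = 0.0681, limma). The fall passed with the line as a block (adjusted p = 0.00895) and without iPS-S12 (0.0424). Of 6 glial markers 3 were measured, OLIG1 and OLIG2 were at 0 throughout and S100B reached 8.22 RPM.

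**Figure D4:**
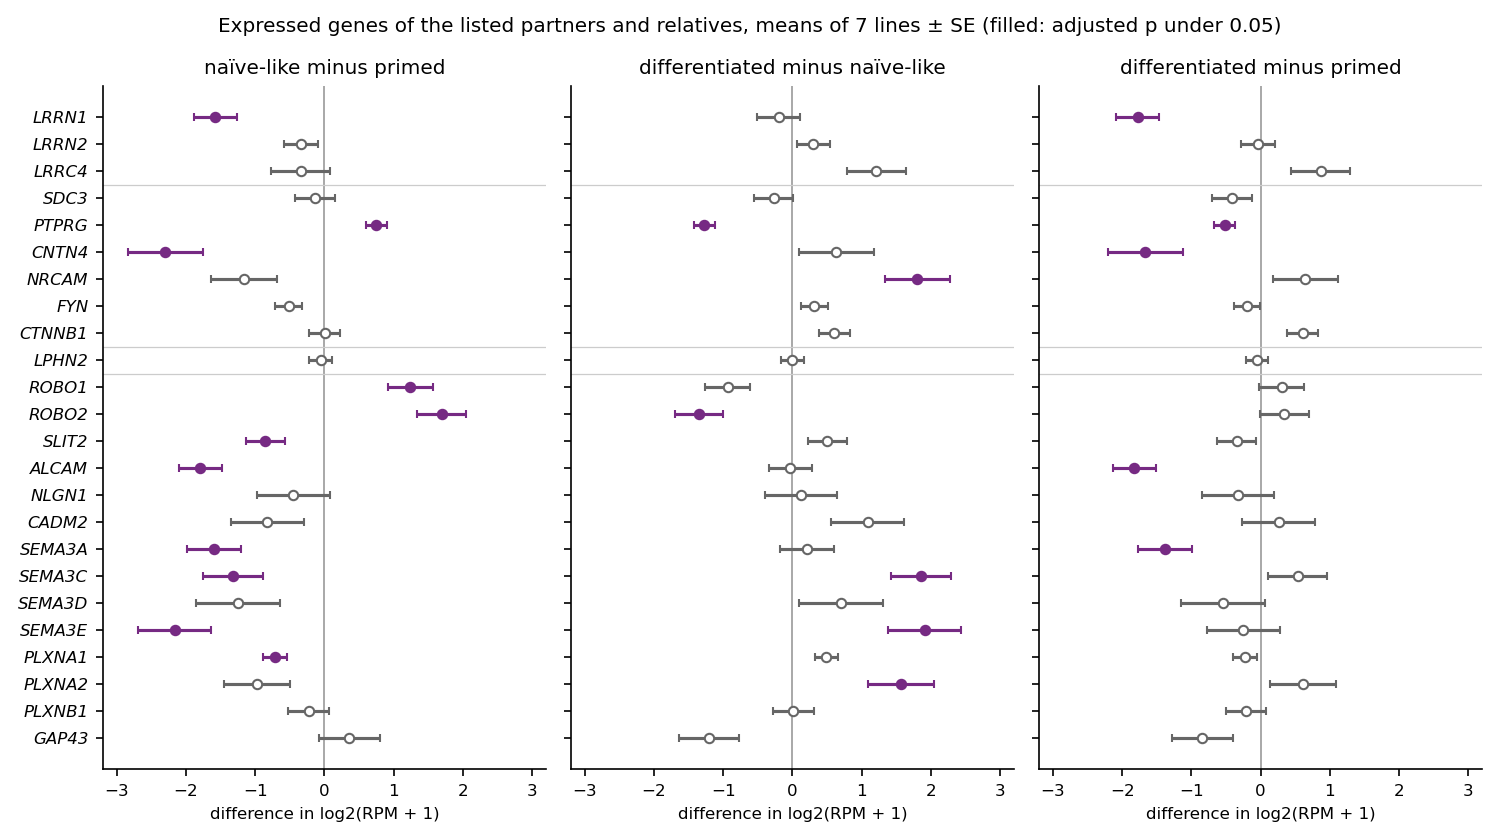
Difference in log2(RPM + 1) between media for the 24 expressed genes of the partner lists, as means of 7 lines with bars of 1 SE, filled where the adjusted p was under 0.05. Grey lines part the lists (leucine-rich repeat proteins, PTN and PTPRZ1 partners, latrophilins, other axonal genes); LPHN2 sat near 0 in all panels while LRRN1, CNTN4, ALCAM and the semaphorins lay left of 0 on conversion.

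Likeness was measured as Pearson's r of log2(RPM + 1) over the 21 PSC libraries, a description with no p because the libraries share lines and media. The closest gene to NPY was SLC25A38 (r = 0.83), a mitochondrial glycine carrier, followed by ALDH4A1 (0.79) and the secreted FAM19A4 (0.77), the last at medians of 26.5, 104 and 9.29 RPM in primed, naïve-like and differentiated cells. BCHE and PTN shared a close gene, the helix-loop-helix inhibitor ID4 (r = 0.81 and 0.83), which was at 95.2, 19.9 and 47.2 RPM, and the related ID3 (r = 0.82) followed for LRRN3 after TM4SF18 (0.87) and SKAP2 (0.86). TM4SF18 was at 29.8 RPM in primed and 0.178 RPM in naïve-like cells, medians beside 25.6 and 0.292 RPM for LRRN3. The remaining close genes were H2AZ2 (0.86) and CYTL1 (0.80) for BCHE, and LRRC17 (0.81) and MARCKSL1 (0.78) for PTN. For LPHN3 they were PON2 (0.91), FSTL1 (0.90) and KLHL5 (0.87), for PTPRZ1 CEP85 (0.91), PSMB4 (0.90) and HMGA1 (0.89), and for NPTX2 VPS72 (0.75), MAGEF1 (0.71) and BOC (0.70).

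Medium means carried part of the likeness for some genes and little of it for others. After they were subtracted, r was 0.87 to 0.91 for the 3 genes closest to PTPRZ1 and 0.78 to 0.86 for those closest to LPHN3, but 0.21 for ID3 with LRRN3 and 0.40 for MARCKSL1 with PTN. Among the 7 genes themselves 5 of 21 pairs had r above 0.5, the highest being BCHE with LRRN3 (0.72), BCHE with LPHN3 (0.63), PTN with LPHN3 (0.57), BCHE with PTN (0.56) and LRRN3 with PTN (0.50). With medium means removed 1 pair was left above 0.5, LRRN3 with PTPRZ1 (0.66), both of which were lowest in iPS-S12 among primed lines and on average lower in ESC than iPSC lines among differentiated ones. NPY was negatively related to LPHN3 (-0.64) and BCHE (-0.59).

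**Figure D5:**
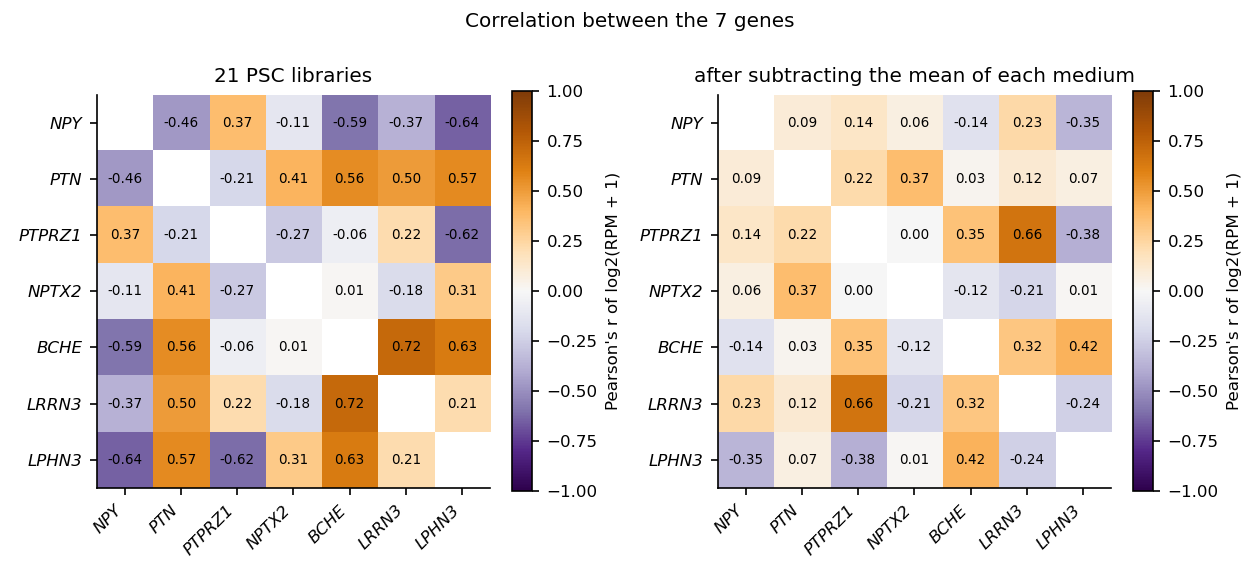
Pearson's r between the 7 genes over 21 PSC libraries (left) and after subtracting the mean of each medium (right), from purple at -1 to orange at 1. The block of positive values among BCHE, LRRN3, PTN and LPHN3 on the left was weaker on the right, where LRRN3 with PTPRZ1 was the highest at 0.66.

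The chromosomal neighbours, named from the RefSeq annotation of another assembly (T2T-MFA8v1.1), were read as well. LRRN3 overlaps IMMP2L, a gene of an inner mitochondrial membrane peptidase, and the reads were counted without strand, so reads of overlapping genes cannot be told apart. The same limit holds for LPHN3, which overlaps LOC107129735, a gene not measured. It also holds for PTN and LRRN3, each overlapped by 1 gene that does not code for protein. IMMP2L was at medians of 10.9, 15.1 and 10.4 RPM and did not pass on conversion (0.66, adjusted p = 0.0957, limma), where LRRN3 changed by -3.66. FAM3C and AASS beside PTPRZ1 and PALS2 beside NPY did not pass on conversion. STK31 beside NPY, ZBBX beside BCHE, CHRM2 beside PTN and TECRL beside LPHN3 had medians of 0 in every medium. On the other side of PTN, DGKI had medians of 2.65, 0 and 1.46 RPM in primed, naïve-like and differentiated cells. IGFBP7, on the other side of LPHN3, had 66.7, 23.6 and 30.8 RPM and did not pass on conversion (-1.15, adjusted p = 0.168, limma). BAIAP2L1 beside NPTX2 did pass, with medians of 26.2, 11.1 and 11.8 RPM (-1.33, adjusted p = 0.000223).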

How the data were processed

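SC3-seq libraries were made from 1 ng of total RNA of the 21 PSC cultures and the 2 somatic cell samples. The authors trimmed reads with cutadapt 1.3, mapped them with TopHat 1.4.1 and quantified genes with Cufflinks 2.2.0 without regard to strand, and the deposited RPM values are scaled by the authors to the mapped reads of each library. The file name gives the genome build as macfas5. The annotation used for neighbours is of another build, so no coordinates or sequences are printed.

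Of 8416 rows, 1 was cut short and left out. The rows used sum to 24.85 to 27.53% of the scaling total, so shares of all expressed genes are shares within the part read. Read numbers were recovered from the smallest step of each library, and 86.7 to 92.9% of values came out as whole reads (tolerance 0.02), so no count test was run. Of the 146 non-zero values of the 7 genes, 145 were whole. Intervals and detection limits cover counting error only.

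Differences were fitted with limma 3.58.1 (R 4.3.3) on log2(RPM + 1) with a mean-variance trend, over the 2776 expressed genes, two-sided, with Benjamini-Hochberg adjustment and a threshold of 0.05. A fold on this scale understates the change of genes at low RPM. The test was run on simulated data drawn without a line effect, so that run does not cover the pairing of libraries by line. Levels are of 3′-end reads. The interaction for the change from primed to differentiated cells was added after PTN was seen to differ in direction between ESC and iPSC lines.

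The labels pair libraries by cell line: deviations from the group means correlated at 0.269 on average between libraries of the same line (21 pairs, lowest 0.0304) and at -0.0446 between lines and media (126 pairs). The members and the gene lists were chosen with earlier results of these data known. The rule for the 7 genes names the media and the ESC and iPSC lines, so no p-value is given for them in either comparison. Genes named besides the 7 are the 3 with the highest Pearson r to each, listed partners and markers that passed a threshold or reached a mean of 10 RPM in a medium, markers used as checks, and chromosomal neighbours. Listed genes named at lower levels, such as ACHE, PTX3 and S100B, were named after their values were seen. Of the gene IDs, 5564 matched the RefSeq annotation. Alternatives covered the pseudocount (0.1), the filter, the scaling between libraries, the trend and the line as a block. Fits with only the 2 media compared and with each line left out were made too.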

Additional observations from a re-analysis of the deposited data

Results flagged for a closer look

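PTPRZ1 in the primed iPS-S12 library was far from the other 6 primed lines, at 5.31 RPM against 53.8 RPM for the nearest. The gap was 0.741 of the range of the group, above Dixon's critical value for a group of 7. It was the only one of 21 gene and medium groups so marked, and chance marks about 1 in 20. The same library had 32.8 RPM of POU5F1 against 207 to 427 RPM in the other primed lines, and the part of that difference in the PTPRZ1 level was not tested. Without this line the difference between differentiated and primed cells was -1.33 in place of -0.99.

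PTN differed in direction by origin between differentiated and primed cells: all 3 ESC lines were higher (mean 0.60) and all 4 iPSC lines lower (mean -0.77), a difference of 1.36 on the log2 scale with a standard error of 1.10. The changes were 0.11 in CMK6, 0.31 in TRSK and 1.38 in CMK9, and -1.51 in iPS-L3 to -0.50 in iPS-S6 among iPSC lines. How many expressed genes split by sign in this way was not counted. As the genes were read by origin, no p-value is given for it. It was the only one of 21 gene and contrast combinations so marked.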

How the results depend on the processing

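For the 7 genes, 163 alternative fits of the 11 calls between media kept 150 and lost 13, 146 fits of values that had not passed gained 5 calls, and no called value changed sign. These contrasts chose the genes, so nothing is read from the calls kept or from the signs. The lost calls were NPY from naïve-like to differentiated cells (pseudocount 0.1, no filter, without CMK6, TRSK or iPS-L6), BCHE in that step (no filter, without iPS-L3 or iPS-S6), PTPRZ1 in that step (no filter, without CMK6, TRSK or CMK9) and LPHN3 on conversion (without CMK6). Differences by origin, given without a test, changed sign in 37 of the alternative fits, none of them for NPTX2 in differentiated cells or over line means. With the line as a block, differentiated against primed cells gave 585 genes (372 without it) and the origin interaction of that change 4 (0 without it). With no filter, ESC against iPSC in naïve-like cells gave 38 genes (20 with it), and the interactions for conversion, LIF and Dox removal and both steps together gave 8, 5 and 3 (0 with it). With no mean-variance trend the line means gave 24 genes (45 with it). Leaving out 1 line in turn gave 302 to 527 genes for naïve-like against primed, 219 to 342 for differentiated against naïve-like, 241 to 392 for differentiated against primed, and for origin 15 to 46 in primed, 7 to 31 in naïve-like, 4 to 112 in differentiated cells, 9 to 160 over line means and 0 to 4 for the interaction of differentiated against primed cells; 112 and 160 were without iPS-S12. The cause was not tested. Centring each library turned the split of 307 higher and 227 lower in naïve-like cells into 218 and 261, and in differentiated ESC against iPSC lines 6 and 11 into 5 and 19 (5 and 16 with quantile normalization). Depth limits values under 3 reads, among them LRRN3 in 5 of 7 naïve-like libraries.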
